A study of Arabidopsis thaliana with 12 samples.

Results

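The iron homeostasis genes followed here are a list of 10 Arabidopsis genes for the storage, regulation and uptake of iron: VTL1 (AT1G21140), VTL2 (AT1G76800), VTL5 (AT3G25190), PYE (AT3G47640), BTS (AT3G18290), IRT1 (AT4G19690), FRO2 (AT1G01580), bHLH38 (AT3G56970), bHLH39 (AT3G56980) and bHLH100 (AT2G41240). The list was chosen by name and by the raw counts of its genes over the doses of cycloheximide (CHX) in these same libraries. Of the 10, 5 had a row among the 12905 genes of the table and are described, namely VTL1, VTL2, VTL5, PYE and BTS. The other 5, IRT1, FRO2, bHLH38, bHLH39 and bHLH100, were not analysed here.

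The libraries came from wild-type Col-0 whole seedlings, 2 weeks old, which were held in water. The seedlings were then placed in CHX at 0, 1, 10 or 100 µM for 2 h in low light (30 µE). CHX stops elongation by cytosolic ribosomes. The 4 doses had 3 libraries each, 12 in all, and as no label states that they were grown or treated as separate cultures, the p-values cover the spread between these libraries, which may be technical. The sample labels name CHX doses and were followed, whereas the study's own text cites these data for the flu mutant. The 3′ ends of polyadenylated transcripts were read by bulk MARS-seq, and levels are given as CPM, counts brought to a common library size with TMM factors (trimmed mean of M values, edgeR). Total counts per library ran from 1073063 to 3724564. The floor used here was 3 counts summed over the libraries of a dose, which in CPM amounted to 0.430 for the untreated seedlings, 0.358 for 1 µM, 0.361 for 10 µM and 0.606 for 100 µM. Intervals and floors cover counting error only. In whole seedlings, fewer cells of a type and less RNA per cell cannot be told apart, and root and shoot were not separated.

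Plants keep iron between a lower and an upper limit, because it is needed for haem, iron-sulphur clusters and photosynthesis, while free iron drives the formation of reactive oxygen. In Arabidopsis roots, ferric iron is reduced by the reductase FRO2 and imported by IRT1, and both genes are under the control of the transcription factor FIT with its bHLH partners of subgroup Ib, which include bHLH38, bHLH39 and bHLH100. PYE is a bHLH transcription factor that represses a set of iron genes under iron deficiency. BTS is a ubiquitin ligase with haemerythrin domains that marks bHLH regulators of subgroup IVc for degradation. VTL1, VTL2 and VTL5 belong to the vacuolar iron transporter-like family, and VTL1 carries iron into the vacuole.

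The 3 VTL genes are close relatives whose reads might be confused, so their sequences were compared first. VTL1 (chr1:7404328-7405426, plus strand, TAIR10.1) and VTL2 (chr1:28829243-28830278, plus strand) each had 1 exon in the RefSeq annotation of TAIR10.1, and VTL5 (chr3:9174398-9175866, plus strand) had 2. No other RefSeq gene overlapped any of the 5 measured members. The coding sequences were 77.1% identical between VTL1 and VTL2, 70.7% between VTL1 and VTL5 and 68.4% between VTL2 and VTL5. Over the last 300 bases of the transcripts, where a 3′ method reads, identity was 62.5%, 57% and 57.3%. The longest identical runs anywhere in the whole transcripts were 24, 14 and 17 bases. VTL3 and VTL4, family members not analysed here, were closer to VTL1, with coding sequences 88.7% and 88.9% identical to its own. Over the last 300 bases, identity to VTL1 was 66.5% and 61.2%. The longest runs shared with VTL1 were 53 and 32 bases, whose place in the transcripts was not examined. A read wholly inside such a run could not be placed from its sequence.

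The 250 bases before the start of each VTL gene are shown because VTL1 and VTL2, whose levels moved apart over the doses, carried a common stretch close to their starts. The sequences are from RefSeq TAIR10.1, 5′ to 3′ on the plus strand, at chr1:7404078-7404327 for VTL1, chr1:28828993-28829242 for VTL2 and chr3:9174148-9174397 for VTL5. The capitals mark the longest run that VTL1 and VTL2 have in common.
VTL1: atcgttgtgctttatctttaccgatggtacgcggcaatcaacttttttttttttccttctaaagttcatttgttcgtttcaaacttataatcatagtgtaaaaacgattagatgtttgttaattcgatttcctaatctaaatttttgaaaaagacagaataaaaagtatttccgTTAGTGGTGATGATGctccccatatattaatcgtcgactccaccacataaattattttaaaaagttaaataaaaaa
VTL2: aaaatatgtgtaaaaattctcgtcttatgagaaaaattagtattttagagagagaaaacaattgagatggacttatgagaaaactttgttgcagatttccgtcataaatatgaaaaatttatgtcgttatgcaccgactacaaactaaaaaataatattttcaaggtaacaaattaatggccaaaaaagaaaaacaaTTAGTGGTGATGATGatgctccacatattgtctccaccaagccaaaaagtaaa
VTL5: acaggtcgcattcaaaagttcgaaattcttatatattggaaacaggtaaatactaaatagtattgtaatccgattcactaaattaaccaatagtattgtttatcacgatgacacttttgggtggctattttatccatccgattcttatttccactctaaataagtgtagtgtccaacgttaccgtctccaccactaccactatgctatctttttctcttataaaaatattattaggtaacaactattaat
The run of 15 bases began at −76 from the start of VTL1 and at −53 from that of VTL2, and on either strand it was found in 2 of the 27443 windows of the same length before protein-coding genes, those of VTL1 and VTL2 themselves. As the run was taken from these 2 windows, the count could not be lower. A function of the stretch was not tested. VTL5 had no run of more than 10 bases in common with VTL2 or of more than 9 with VTL1.

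VTL1 was higher at every dose of CHX than at 0 µM. Its levels in the 3 libraries were 6.04, 7.52 and 7.60 CPM at 0 µM and 17.8, 27.0 and 26.5 CPM at 1 µM. They were 22.2, 13.2 and 21.6 CPM at 10 µM and 31.0, 20.7 and 19.3 CPM at 100 µM. Each of the 9 treated libraries thus lay above the 3 untreated ones, and the libraries of 1, 10 and 100 µM overlapped each other. Such separation was common. At 1, 10 and 100 against 0 µM, the libraries of 38.9%, 54.2% and 53.8% of all genes did not overlap, and those of 1, 4 and 4 of the 5 measured members. For 10 against 1 µM, this held for 43.5% of all genes and 3 members. The untreated libraries averaged 7.05 ± 0.882 CPM, those of 1 µM 23.8 ± 5.16, those of 10 µM 19.0 ± 5.04 and those of 100 µM 23.6 ± 6.38 (SD, n = 3). The log2 change from 0 µM was 1.77 ± 0.29 (SE) at 1 µM, 1.44 ± 0.30 at 10 µM and 1.74 ± 0.31 at 100 µM. Between doses it was −0.33 ± 0.25 for 10 against 1 µM and 0.30 ± 0.27 for 100 against 10 µM. The order of the mean levels was 0, 10, 100 and 1 µM from low to high, and among these neighbours the libraries separated between 0 and 10 µM alone.

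Unlike VTL1, VTL2 was lower at 10 and 100 µM than at 0 µM. Its libraries held 8.26, 9.40 and 6.71 CPM at 0 µM and 8.54, 13.7 and 13.6 CPM at 1 µM. At 10 µM they held 1.66, 3.30 and 2.65 CPM, and at 100 µM 6.35, 4.03 and 2.34 CPM. The libraries of 10 and 100 µM all lay below those of 0 µM, while 0 and 1 µM overlapped. The log2 change from 0 µM was 0.56 ± 0.33 at 1 µM, −1.65 ± 0.41 at 10 µM and −0.97 ± 0.41 at 100 µM, and that of 10 against 1 µM was −2.22 ± 0.38. From 10 to 100 µM the change was 0.68 ± 0.47, and the libraries of these doses overlapped. At 10 and 100 µM the values rested on 21 and 20 counts summed over the 3 libraries.

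VTL5 was the member with the largest difference between doses. It measured 33.1, 34.5 and 34.0 CPM in the 0 µM libraries and 37.4, 32.3 and 52.9 CPM in those of 1 µM. In the 10 µM libraries it measured 2.32, 2.64 and 2.65 CPM, and in the 100 µM libraries 2.38, 2.02 and 1.17 CPM. The 6 libraries of 0 and 1 µM stood far above the 6 of 10 and 100 µM, and within each of these pairs of doses the libraries overlapped. The log2 change from 0 µM was 0.27 ± 0.21 at 1 µM, −3.71 ± 0.29 at 10 µM and −4.18 ± 0.34 at 100 µM, so the level was 13.1-fold and 18.1-fold lower. For 10 against 1 µM it was −3.98 ± 0.28 and for 100 against 10 µM −0.46 ± 0.48. The summed counts were 235, 338, 21 and 9 from the lowest to the highest dose.

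**Figure D1:**
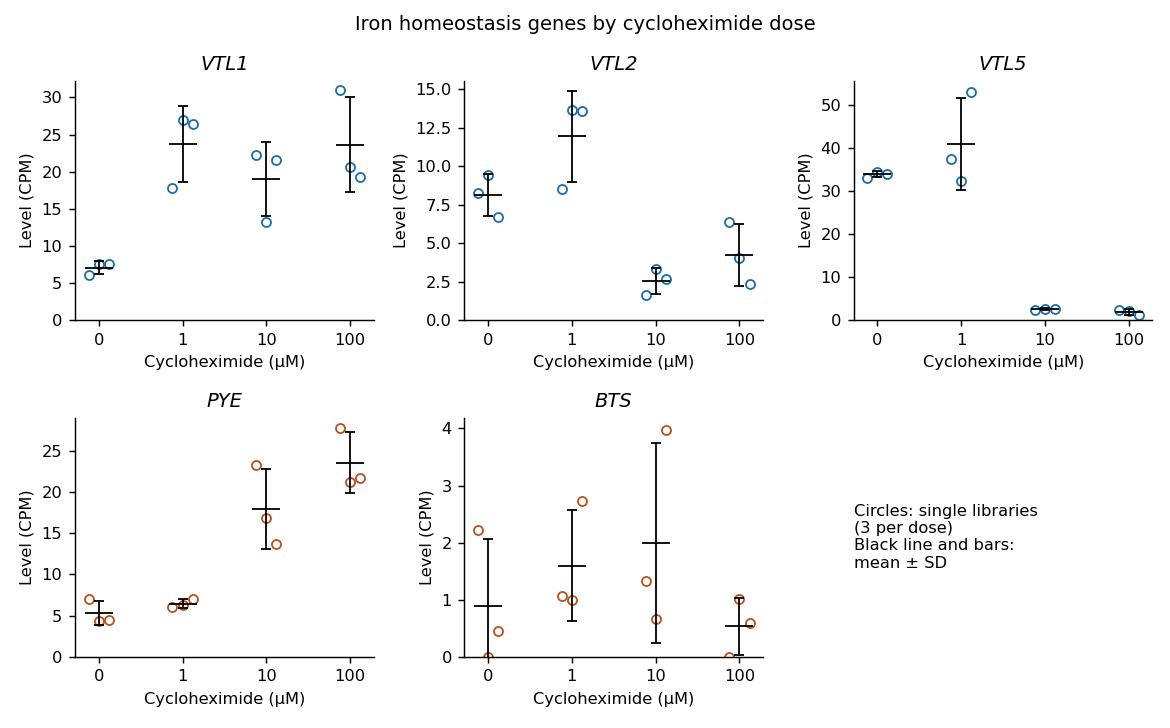
Level of VTL1, VTL2, VTL5, PYE and BTS in CPM (vertical axes, from 0) at each CHX dose in µM, with a circle for each library and the mean ± SD of 3 libraries in black. VTL1 and PYE are higher at 10 and 100 µM than at 0 µM, VTL2 and VTL5 are lower, and the libraries of BTS overlap at all doses.

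Within the VTL family, the balance between genes of the same library therefore shifted with dose, a measure that needs no scaling between libraries. The VTL1 to VTL2 count ratio was 0.731, 0.8 and 1.13 in the libraries of 0 µM, and 2.08, 1.98 and 1.94 in those of 1 µM. It was 13.4, 4.0 and 8.17 with 10 µM and 4.88, 5.13 and 8.25 with 100 µM CHX. The libraries of 0, 1 and 10 µM did not overlap, while those of 10 and 100 µM did. The VTL1 to VTL5 count ratio averaged 0.208 ± 0.0223 in untreated seedlings and 0.604 ± 0.201 with 1 µM, 7.58 ± 2.34 with 10 µM and 13.3 ± 3.13 with 100 µM CHX (SD, n = 3). A ratio of this kind shows unequal change and does not say which gene moved.

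**Figure D2:**
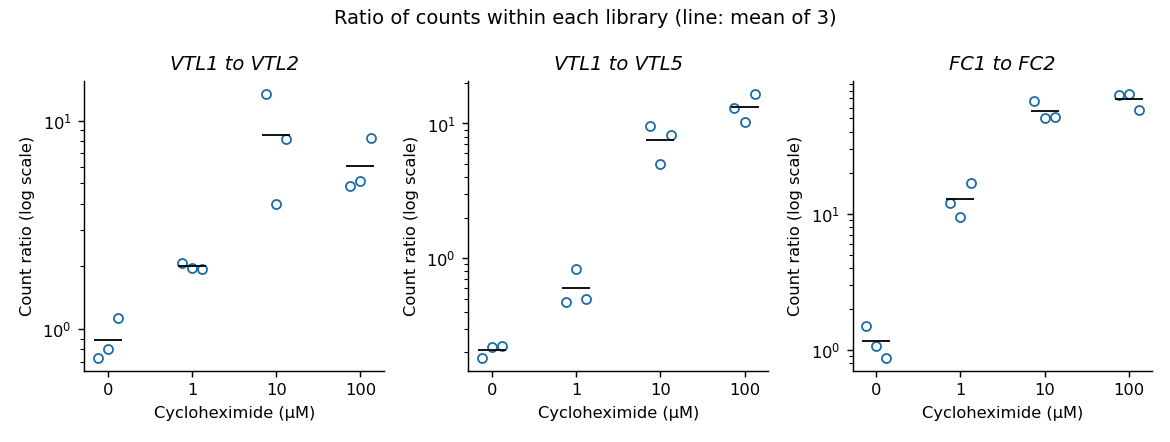
Ratio of the counts of 2 genes within each library (vertical axes, log scale) at each CHX dose in µM, with a circle for each library and a line for the mean of 3. The ratio of VTL1 to VTL5 goes from 0.208 at 0 µM to 13.3 at 100 µM, and that of the ferrochelatase genes FC1 to FC2 from 1.15 to 69.2.

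Of the regulators, PYE (chr3:17567126-17569394, plus strand, TAIR10.1) was higher at the upper 2 doses. PYE stood at 6.99, 4.39 and 4.47 CPM in the libraries of 0 µM and at 6.05, 6.33 and 7.0 CPM in those of 1 µM. It stood at 23.2, 16.8 and 13.7 CPM at 10 µM and at 27.8, 21.2 and 21.6 CPM at 100 µM. The 6 libraries of 0 and 1 µM overlapped and all lay below the 6 of 10 and 100 µM, which overlapped in turn. The log2 change from 0 µM was 0.24 ± 0.33 at 1 µM, 1.71 ± 0.30 at 10 µM and 2.08 ± 0.30 at 100 µM, with 1.48 ± 0.28 for 10 against 1 µM and 0.37 ± 0.26 for 100 against 10 µM. PYE, which represses iron genes, and VTL1 were the members with higher levels at 10 and 100 µM. At 1 µM the libraries of VTL1 lay above those of 0 µM, and those of PYE overlapped them.

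BTS was close to the floor at every dose, and no order of its doses can be given. The counts of BTS in the 3 libraries were 7, 0 and 1 at 0 µM. The levels were 2.22, 0 and 0.447 CPM at 0 µM, and 1.07, 1.00 and 2.72 CPM at 1 µM. They were 1.33, 0.660 and 3.98 CPM with 10 µM and 0, 1.01 and 0.585 CPM with 100 µM. The libraries of all 4 doses overlapped. The log2 change of BTS from 0 µM was 0.53 ± 0.91 at 1 µM and 0.78 ± 0.89 at 10 µM. At 100 µM only 3 counts were left, and the BTS ratio to 0 µM was 0.528 with an exact 95% binomial counting interval of 0.0903 to 2.20, so a change in either direction was not detectable at this depth. Without replicate 1 of 0 µM, the BTS log2 change was 2.41 at 1 µM, 2.67 at 10 µM and 1.05 at 100 µM. Other single libraries moved these BTS values too, as the change was −0.03 at 1 µM without replicate 3 of 1 µM, −0.10 at 10 µM without replicate 3 of 10 µM and −1.55 at 100 µM without replicate 2 of 100 µM.

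BTS (chr3:6273966-6280562, plus strand, TAIR10.1) was the member whose upstream window held a G-box, the letters CACGTG that bHLH factors are known to bind. The window at chr3:6273716-6273965 is shown because it held 3 of them, in capitals.
BTS: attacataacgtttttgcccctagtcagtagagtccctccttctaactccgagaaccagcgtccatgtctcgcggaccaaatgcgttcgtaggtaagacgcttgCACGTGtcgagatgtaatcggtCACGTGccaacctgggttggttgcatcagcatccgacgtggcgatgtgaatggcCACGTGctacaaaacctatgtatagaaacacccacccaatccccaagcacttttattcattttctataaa
The matches began at −146, −124 and −70 from the gene start. Of the 27443 windows of 250 bases before protein-coding genes, 6.49% held CACGTG on either strand. The wider E-box letters CANNTG, which include every G-box, were in 55.3% of the windows, with 4 matches in the window of BTS, 1 in that of VTL1 and 1 in that of VTL2. The letters CATGC, the core of the iron-deficiency element IDE1 known from barley, were in 17.2% of all windows and in none of the 5 members' windows. A match is a string of letters and not evidence of binding, and its absence here says only that these letters were not in this window.

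Calls required a change of 2-fold or more together with a p under 0.05 in edgeR's quasi-likelihood test, adjusted by Benjamini and Hochberg's method over the 12905 genes. At 1 against 0 µM, 1 of the 5 measured members was called higher and 0 lower, where 13.5% of all genes were called higher and 3.12% lower. At 10 against 0 µM, 2 were called higher and 2 lower, against 22.4% and 12.1% of all genes. At 100 against 0 µM, 2 were called higher and 1 lower, against 23.8% and 14.9%. For 10 against 1 µM the members' counts were 1 higher and 2 lower, against 12.2% and 4.98%, and for 100 against 10 µM 0 and 0, against 2.19% and 2.48%. Since the members were chosen by these counts, their calls are a description and carry no p here.

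**Figure D3:**
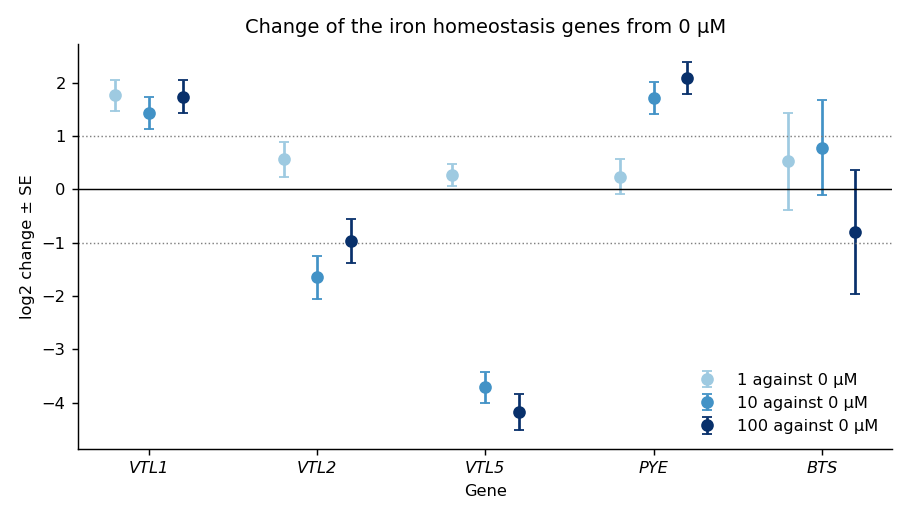
The log2 change from 0 µM (vertical axis) of VTL1, VTL2, VTL5, PYE and BTS at 1, 10 and 100 µM CHX, as points with SE derived from the edgeR test, with dotted lines at the 2-fold threshold. VTL5 reaches −4.18 at 100 µM, while VTL1 stands between 1.44 and 1.77 at all 3 doses.

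The size of these changes depended on how the libraries were scaled. With library totals alone, the median gene moved by −0.31, −0.82 and −1.01 on the log2 scale at 1, 10 and 100 against 0 µM, and with 9 reference genes by −0.32, 0.23 and 0.52, where TMM gave 0.02 at each. With library totals alone, VTL1 changed by 1.42, 0.59 and 0.70 at the 3 doses, PYE by 0.86 and 1.04 at 10 and 100 µM, VTL5 by −4.56 and −5.22 and VTL2 by −2.50 and −2.01. VTL1 thus stayed above its level at 0 µM under each scaling and fell short of 2-fold at 10 and 100 µM with library totals alone. With the reference genes, VTL2 changed by −0.47 at 100 µM and PYE by 2.58. The counts of the 9 reference genes were added up for this scaling. Polyubiquitin gene UBQ10 and elongation factor gene EF1A had the most, 27942 and 13853 at 0 µM. Under TMM, 2, 2 and 1 of the 9 were themselves called lower at 1, 10 and 100 against 0 µM, and 0 higher. Of all genes, 3.12%, 12.1% and 14.9% were called lower. UBQ10 changed by −0.74 ± 0.19 at 100 µM under TMM.

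Across the 12 libraries, the course of VTL5 ran with that of VTL2 (Pearson r of 0.872 of log2(CPM + 1)) and against that of PYE (r of −0.94). VTL1 had an r of 0.555 with PYE, −0.404 with VTL5 and −0.123 with VTL2. The libraries fall into dose groups that the genes share, so these values describe the dose courses and are given without a p. Among 7750 genes with a mean of at least 10 CPM at 1 dose or more, the 3 most like PYE were AT1G18740, a DUF793 protein of the ROH1 family (r of 0.987), AT5G47710, a lipid-binding protein with a CaLB domain (0.981), and AT3G59310, of solute carrier family 35 (0.981). PYE had 669 genes with r over 0.9. AT3G59310 went from 5.39 ± 4.21 CPM at 0 µM to 138 ± 31.2 at 100 µM, a wider span than that of PYE.

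The genes most like VTL5 were AT1G68500, an uncharacterized protein (r of 0.976), AT3G59640, a glycine-rich protein (0.975), and UGT74F2, a UDP-glucosyltransferase that acts on salicylic acid (0.964), and 255 genes passed 0.9. UGT74F2 went from 161.7 to 231.7 CPM in the untreated libraries to 31.8 to 37.4 CPM in those of 100 µM, so like VTL5 it was at its lowest at the upper doses. For VTL1, 36 genes passed 0.9, a count that also depends on the scatter of VTL1 itself. The nearest were FMO GS-OX4, a flavin-monooxygenase of glucosinolate metabolism (0.96), the auxin response factor ARF2 (0.951) and the cytokinin response factor CRF4 (0.946). ARF2 went from 169.2 ± 11.4 CPM at 0 µM to 302.9 ± 21.8 at 1 µM and 291.8 ± 26.0 at 100 µM. VTL2 had 10 such genes, led by the AT-hook protein genes AHL22 (0.961) and AT4G17800 (0.926) and by PEX7, a receptor for protein import into peroxisomes (0.925).

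A wider list of 69 iron genes outside the members, of which 38 had a row, was tested in the same model. At 1 µM 2 were called higher and 1 lower, at 10 µM 3 and 5, and at 100 µM 4 and 6, each against 0 µM. Their share of called genes was 7.89%, 21.1% and 26.3%, where 16.7%, 34.5% and 38.7% of all genes were called. Their median log2 change was −0.09, −0.03 and −0.20, beside 0.02 at each dose for all genes. With library totals alone the calls were 3 higher and 16 lower at 10 µM and 3 and 18 at 100 µM, and with the reference genes 6 and 4 and 8 and 3, so the balance of directions depended on the scaling. No call named below changed its direction under any alternative.

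In iron use, FC1, which encodes a ferrochelatase that inserts iron into protoporphyrin to make haem, rose most. Its libraries held 52.8, 45.8 and 44.7 CPM at 0 µM and 364.1, 351.3 and 526.7 CPM at 1 µM, and the means were 1264 ± 140 CPM at 10 µM and 1542 ± 106 at 100 µM. The log2 change of FC1 was 3.11 ± 0.20, 4.72 ± 0.21 and 5.01 ± 0.22 from 0 to 1, 10 and 100 µM, with edgeR adjusted p of 6.91e-11, 7.36e-14 and 3.2e-14. From 1 to 10 µM FC1 rose by a further 1.61 ± 0.18 (edgeR adjusted p = 8.52e-07). FC2, the ferrochelatase of green tissue, had 42.9 ± 8.02 CPM at 0 µM and 22.5 ± 2.51 at 100 µM, a log2 change of −0.92 ± 0.22 that stayed under 2-fold (edgeR adjusted p = 0.00121). The FC1 to FC2 count ratio in single libraries was 0.877 to 1.51 in untreated seedlings, 9.41 to 16.7 with 1 µM, 50.6 to 66.9 with 10 µM and 57.7 to 75.3 with 100 µM, with no overlap between 0, 1 and 10 µM.

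Other genes of iron use made or carry iron-sulphur clusters. NFU3, a scaffold for clusters in plastids, fell by 1.23, 1.59 and 1.64 on the log2 scale at 1, 10 and 100 µM (edgeR adjusted p = 0.0112, 0.000926 and 0.00139), from 23.4 ± 5.62 CPM to 7.48 ± 4.35 at 100 µM. Without replicate 1 of 0 µM, replicate 1 of 1 µM or replicate 3 of 1 µM, the NFU3 call at 1 µM was lost, with edgeR adjusted p of 0.0941, 0.0537 and 0.0717. ISU1, the mitochondrial scaffold, fell by 1.08 at 100 µM (edgeR adjusted p = 1.14e-05), from 265.4 ± 31.2 to 125.5 ± 2.05 CPM, and with the reference genes its change was −0.57. NFS2, a plastid cysteine desulphurase, went from 57.9 ± 6.12 to 107.0 ± 22.2 CPM, a change of 0.90 ± 0.18 that stayed under 2-fold. NFS1, the cysteine desulphurase of mitochondria, had 52.0 ± 3.85 CPM at 0 µM, 66.0 ± 3.79 at 1 µM and 36.8 ± 3.48 at 100 µM. It was not called, and its change at 100 µM stayed under 2-fold (edgeR adjusted p = 0.0305). Over the 10 measured genes of this list the median was 0.02 at 10 µM and −0.625 at 100 µM, with 1 called higher at each dose, FC1, and 1 and 2 called lower.

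Among the 8 other measured genes of iron uptake, 1 rose and 2 fell at both 10 and 100 µM. AHA2, a proton pump of the plasma membrane that acidifies the soil around the root, went from 97.7 ± 34.7 CPM to 27.3 ± 7.92 at 10 µM and 19.3 ± 6.09 at 100 µM (log2 changes of −1.85 ± 0.28 and −2.37 ± 0.30, edgeR adjusted p = 1.06e-05 and 1.06e-06). IRT3, a transporter of zinc and iron related to IRT1, held 15.9, 16.3 and 16.6 CPM at 0 µM and 4.97, 4.62 and 4.86 CPM at 10 µM, a fall of 1.74 (edgeR adjusted p = 1.6e-05), and 6.21 ± 0.744 CPM at 100 µM, a fall of 1.37 that was 0.87 with the reference genes. F6'H1, the enzyme that starts the synthesis of scopoletin and other coumarins that mobilise iron, rose from 9.53, 11.9 and 8.94 CPM to 33.8, 38.0 and 38.0 CPM at 10 µM and to 42.4 ± 7.69 CPM at 100 µM (1.87 ± 0.23 and 2.07 ± 0.23, edgeR adjusted p = 6.31e-07 and 1.68e-07). The exporter of coumarins PDR9 was at 6.69 ± 1.54 and 12.6 ± 0.410 CPM at 0 and 100 µM. Its change of 0.88 ± 0.29 stayed under 2-fold and was not called (edgeR adjusted p = 0.016). FRO3, a ferric reductase of the FRO2 family, had 8.94 ± 4.34 CPM at 0 µM and 13.7 ± 2.10 at 100 µM with overlapping libraries and was not called. The median of the list was 0.41 at 10 µM and 0.54 at 100 µM.

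Of the 6 other measured regulators, CIPK11 was higher at every dose. CIPK11, a protein kinase known to phosphorylate FIT, held 44.0 ± 8.35, 103.3 ± 17.4, 198.8 ± 5.81 and 271.2 ± 45.1 CPM from the lowest to the highest dose (log2 changes of 1.24 ± 0.19, 2.19 ± 0.20 and 2.64 ± 0.20, edgeR adjusted p = 3.67e-05, 5.08e-09 and 2.61e-10). At 1 µM its change was 0.90 with library totals alone and 0.91 with the reference genes, under 2-fold. Of bHLH subgroup IVc, some of whose members BTS marks for degradation, ILR3, bHLH104 and bHLH34 were measured and were not called at any dose. The gene bHLH115 of the same subgroup had no row. ILR3 held 200.5 ± 24.4 CPM at 0 µM and 200.4 ± 8.48 at 100 µM. The change of bHLH104 was −0.91 ± 0.21 at 10 µM and −0.83 ± 0.22 at 100 µM, under 2-fold (edgeR adjusted p = 0.00107 and 0.00307). Its libraries at these doses lay below those of 0 µM. bHLH34 was near the floor, with 3 counts over the 0 µM libraries and 15 over those of 10 µM, a ratio of 4.20 with an exact 95% binomial counting interval of 1.19 to 22.6, and its change at 10 µM was not called (edgeR adjusted p = 0.098). URI, a bHLH factor upstream of the subgroup Ib genes, fell by 1.02 at 100 µM with overlapping libraries (edgeR adjusted p = 0.0439). That call was lost when any of 8 libraries was left out, with edgeR adjusted p of 0.0513 to 0.199, namely replicates 1 and 2 of 0 µM, all 3 of 1 µM, replicate 1 of 10 µM and replicates 2 and 3 of 100 µM. It was also lost with the reference genes (a change of −0.52, edgeR adjusted p = 0.343), in a model of the groups compared alone (0.0951), after thinning (0.0897) and in DESeq2 (adjusted p = 0.0872).

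In transport and storage, single genes passed the threshold. YSL2, a carrier of metal-nicotianamine complexes, rose at 100 µM to 75.4, 76.6 and 77.2 CPM from 20.02, 29.5 and 21.0 CPM at 0 µM (1.72 ± 0.24, edgeR adjusted p = 2.54e-06), and by 0.68 with library totals alone. OPT3, which moves iron into the phloem, fell at 10 µM by 1.04 (edgeR adjusted p = 0.000479), from 58.4 ± 9.66 to 28.3 ± 6.37 CPM. The call of OPT3 rested on the 2-fold line, since its change was −0.84 to −0.99 without replicate 3 of 0 µM, replicate 1 or 3 of 1 µM or replicate 1 or 3 of 10 µM, −0.84 with the reference genes and −0.96 in a model of the groups compared alone. YSL1 was at 62.9 ± 15.7 and 52.2 ± 8.01 CPM at 0 and 100 µM and was not called. NEET, an iron-sulphur protein of plastids and mitochondria, fell by 1.43 at 10 µM, with overlapping libraries, and by 1.62 at 100 µM (edgeR adjusted p = 0.00197 and 0.00132). FER1, which encodes a ferritin of leaves, held 276.9 ± 34.8 CPM in untreated seedlings, 378.2 ± 113 with 1 µM, 261.6 ± 21.7 with 10 µM and 419.1 ± 15.3 with 100 µM CHX, and the plastid permease gene PIC1 went from 49.5 ± 7.89 to 30.4 ± 5.05 CPM. MIT2, a gene for iron import into mitochondria, had a log2 change of 0.68 ± 0.24 at 1 µM and −0.75 ± 0.27 at 100 µM. None of FER1, PIC1 and MIT2 was called. At 100 µM their changes stayed under 2-fold, with edgeR adjusted p of 0.0132, 0.00682 and 0.0258. The median of the 6 transport genes was −0.55 at 10 µM and −0.50 at 100 µM, and that of the 8 storage genes −0.03 and 0.12.

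**Figure D4:**
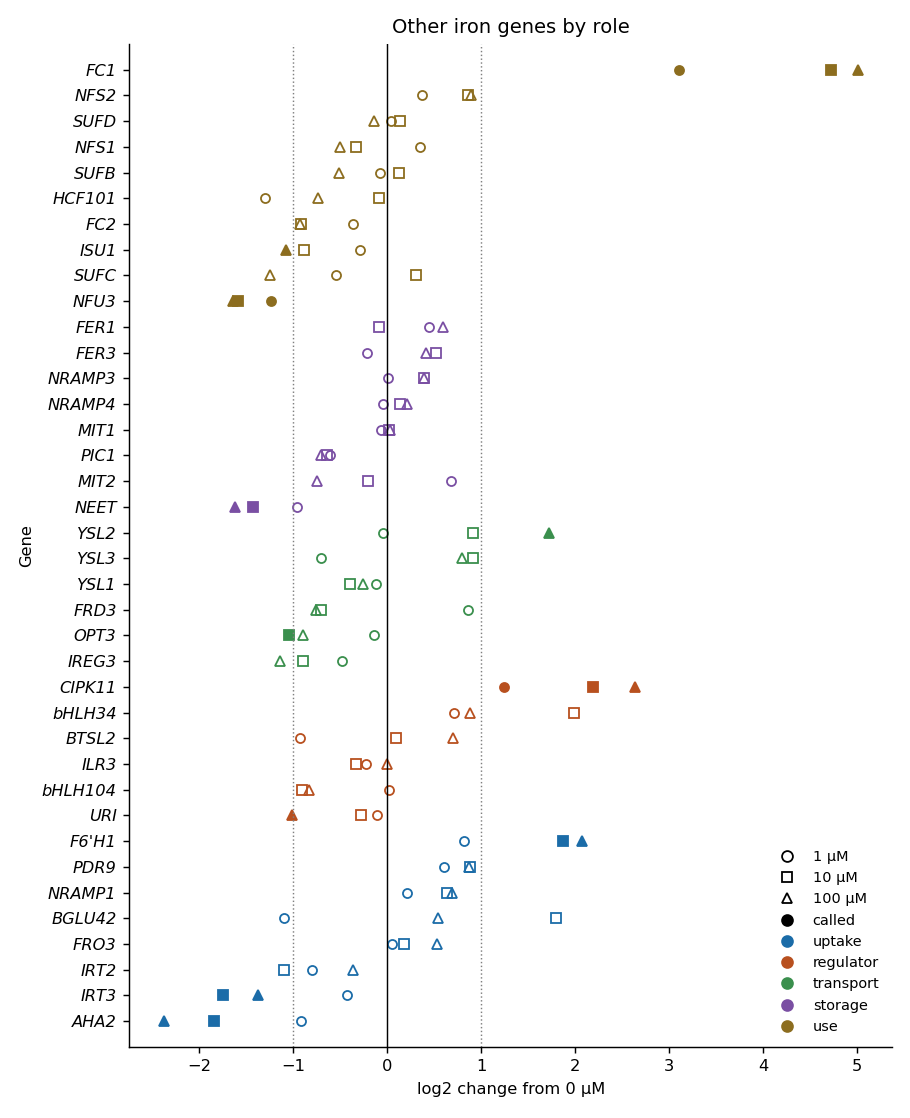
The log2 change from 0 µM (horizontal axis) of the 38 other measured iron genes (vertical axis, grouped by role in colour) at 1 µM (circles), 10 µM (squares) and 100 µM (triangles), filled where called, with dotted lines at the 2-fold threshold. FC1 stands apart at 3.11, 4.72 and 5.01, and AHA2 has the lowest value at 100 µM, −2.37.

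Between neighbouring doses, 4 of the 38 rose and 1 fell from 1 to 10 µM, which is 13.2% called, beside 17.2% of all genes. Besides FC1, F6'H1 rose by 1.05 ± 0.21 and IRT3 fell by 1.31 (edgeR adjusted p = 0.000594 and 0.000949), values that came to 0.55 for F6'H1 with library totals alone and −0.75 for IRT3 with the reference genes. BGLU42, a beta-glucosidase of coumarin release, had 3 counts over the 1 µM libraries and 25 over those of 10 µM, a ratio of 8.40 with an exact 95% binomial counting interval of 2.56 to 43.5. The transporter gene YSL3 went from 1.36 ± 0.870 to 4.12 ± 1.10 CPM (edgeR adjusted p = 0.0333), a call that was lost without replicate 1 or 2 of 1 µM or replicate 1 or 2 of 10 µM (edgeR adjusted p of 0.071 to 0.149), in DESeq2 (adjusted p = 0.0649) and with library totals alone (edgeR adjusted p = 0.105). BGLU42 was lost without replicate 2 of 1 µM or replicate 1 of 10 µM (0.0792 and 0.053), and F6'H1 changed by 0.97 without replicate 2 of 1 µM. From 10 to 100 µM edgeR called 0 of the 38, with 4 at an unadjusted p under 0.05, and DESeq2 also called 0, beside 4.67% of all genes called by edgeR.

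Genes that mark root tissue also differed between doses. Of 15 listed root markers 13 were measured, and their summed level was 137.7 to 185.6 CPM in the libraries of 0 µM, 90.0 to 130.7 with 1 µM, 50.5 to 57.7 with 10 µM and 60.8 to 62.0 with 100 µM. The sums of the 3 CHX doses thus all lay below those of 0 µM. Against 0 µM, 1 of the 13 was called higher and 2 lower at 1 µM, 0 higher and 7 lower at 10 µM and 1 higher and 8 lower at 100 µM, where 3.12%, 12.1% and 14.9% of all genes were called lower. EXPA7 was the marker called higher at 1 µM and MYB36 at 100 µM. PRP3, a proline-rich protein of root hairs, went from 50.6 ± 11.6 CPM at 0 µM to 14.1 ± 2.68 at 1 µM and took a large part of the lower sum at that dose. None of the 13 was at 0 over a whole dose. VTL2, VTL5, AHA2 and IRT3 were lower at 10 and 100 µM, as was the summed level. At 1 µM, where the sum was already lower, VTL2, VTL5 and AHA2 overlapped 0 µM, and IRT3 lay below it. AHA2 and IRT3 changed at 1 µM by −0.92 ± 0.26 and −0.43 ± 0.24 (edgeR adjusted p = 0.0129 and 0.217), and neither was called. The root markers' part in the levels of these iron genes was not tested.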

How the data were processed

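Whole-seedling RNA was measured in 12 libraries, 3 at each of 4 CHX doses. Per the labels, base calling by the authors used bcl2fastq 2.17.1.14, and trimming, alignment and counting on Araport11 gene models used cutadapt 1.8.3, STAR and HTSeq. The deposited counts are whole reads per gene for 12905 genes, from a file named as unfiltered for molecular identifiers, so PCR copies were taken to be included. The normalized signal that the authors deposited is the count divided by 1 factor per library, and the deposited log2 values were read as DESeq2's regularized values. Neither was used, nor were the authors' fold changes and p-values. Every gene passed a filter that asked for 5 reads in 1 library or more.

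Counts were fitted in edgeR 4.0.16 (R 4.3.3) with TMM scaling and 1 quasi-likelihood model over the 12 libraries, and 5 pairs of doses were compared. Levels are mean ± SD of CPM, and changes are log2 estimate ± SE. The SE was derived from the quasi-likelihood test, as the size of the estimate divided by the square root of its F statistic. The procedure was tested on simulated data. Replicate numbers were not used as pairs in this model.

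The members, the gene lists and the tests were chosen with earlier results of these data known. All 5 measured members are named. Of the other iron genes, those called against 0 µM in at least 1 comparison and the 2 most abundant of each list never called are named, and the genes called between 1 and 10 µM, FC2, PIC1, bHLH34, the root markers named and the ratios of counts were chosen after their values were seen. Likeness used log2(CPM + 1). Sequences were read from TAIR10.1 with Biopython 1.88, and 12831 of the 12905 identifiers matched a RefSeq locus tag. Alternatives were RLE scaling, library totals, reference genes, no filter, filterByExpr, DESeq2 1.42.0, a replicate block, the groups compared alone, libraries thinned to 1073063 counts, the adjusted p without the fold threshold, and each library left out in turn.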

Additional observations from a re-analysis of the deposited data

How the results depend on the processing

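Of 515 values of the 5 members under the alternatives, 504 kept their sign and 22 moved by more than 1.5-fold. Many of the 515 had little room to move, so these counts overstate the agreement. Leaving out a library of a dose outside the comparison hardly touched a value, and dropping the filter kept the same genes. The signs that turned were those of BTS, of PYE and VTL5 at 1 against 0 µM (−0.12 and −0.08 with library totals, −0.12 and −0.07 with the reference genes) and of VTL1 at 10 against 1 µM (0.25 with the reference genes). Thinning moved VTL2 to −2.55 at 10 against 0 µM, to −3.16 at 10 against 1 µM and to 1.27 at 100 against 10 µM.

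The other iron genes called, with the adjusted p alone, numbered 8 at 1 against 0 µM, 15 at 10 against 0 µM, 19 at 100 against 0 µM, 15 at 10 against 1 µM and 2 at 100 against 10 µM. With library totals alone they numbered 19, 21 and 11 at 10 against 0, 100 against 0 and 10 against 1 µM. At 10 against 1 µM, filterByExpr gave 3 of 29 tested and thinning 9 of 35, and at 100 against 10 µM the reference genes gave 1. With each library left out in turn, the counts ran from 2 to 5 at 1 against 0 µM, 7 to 11 at 10 against 0 µM, 9 to 11 at 100 against 0 µM, 3 to 7 at 10 against 1 µM and 0 to 1 at 100 against 10 µM. The count of 5 at 1 against 0 µM came without replicate 3 of 0 µM, that of 3 at 10 against 1 µM without replicate 2 of 1 µM, and that of 1 at 100 against 10 µM without replicate 1 of 10 µM. The cause was not tested.

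Libraries with the same replicate number deviated together weakly at most (r from −0.069 to 0.211 over 18 pairs, with 4 over 0.1). Between libraries with different numbers, r ran from −0.247 to 0.112. With the replicate number as a block, the counts of other iron genes called were 3, 8, 9, 5 and 0 for the 5 comparisons, beside 3, 8, 10, 5 and 0 without it, URI being the gene lost. Of the 5 members, BTS had the fewest counts, 3 to 15 per dose.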
